A study of Mus musculus with 31 samples.

Results

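The transcripts described here are those of 7 genes used as markers of definitive endoderm, the germ layer that forms the gut tube, liver and pancreas. They are Sox17, Foxa1, Foxa2, Hhex, Onecut1, Cxcr4 and Trh, 7 of 18194 genes measured. Of these, 5 encode transcription factors, while Cxcr4 encodes a chemokine receptor and Trh a hormone precursor, so the name definitive endoderm transcription factors covers only part of the list. A gene was represented by a probe set annotated to it alone, and where several existed, by that with the highest mean over the 31 arrays. The members were chosen by name and not by a rule on measured values, though with earlier results of these data known.

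The arrays compare mouse induced pluripotent stem cells (iPSCs, adult cells reprogrammed until they resemble early embryonic ones) that lack Nos3, the gene of endothelial nitric oxide synthase, with control cells. All lines were made by Sendai virus reprogramming of tail-tip fibroblasts taken from adult males. Control cells came from CD1 mice and Nos3-/- cells from strain B6.129P2-Nos3tm1unc/J, so genotype and strain cannot be told apart. Day 0 cells were pluripotent cultures grown on inactive mouse embryonic fibroblast feeders, with 10 control and 6 Nos3-/- arrays. Day 11 samples were embryoid bodies, aggregates formed in AggreWell plates and left to differentiate spontaneously, with 9 control and 6 Nos3-/- arrays. No differentiation factor is named for either genotype, so all 4 groups are mixtures of cells whose makeup was not set. The labels do not state how many lines, mice or cultures stand behind the arrays, and p-values therefore measure the spread between arrays, which may be technical.

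Definitive endoderm arises during gastrulation from epiblast cells exposed to strong Nodal signalling. Sox17, a high-mobility-group factor, and Foxa2, a forkhead factor that can bind closed chromatin, act early in this step, and Foxa1 is the close relative of Foxa2 that works beside it in the later gut, liver and lung. Hhex is a homeobox factor of the anterior endoderm and its liver and thyroid buds, and Onecut1 acts later, in liver and pancreas. Cxcr4, the receptor of the chemokine Cxcl12, is a surface protein by which definitive endoderm cells are commonly sorted, and Trh is the precursor of thyrotropin-releasing hormone. None of these genes is exclusive to definitive endoderm: Sox17 is also active in extraembryonic endoderm and in vessels, Foxa2 in the node and floor plate, and Hhex in vessel and blood precursors.

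Promoter sequences are shown for the 5 members other than Sox17 and Onecut1, so that the sequence at their starts can be read beside transcripts that mostly moved together across arrays. They come from RefSeq (build GRCm38.p6), which matched 6 of the 7 members, and each runs 5′ to 3′ on the gene's strand over 300 bases, from 250 before to 50 after the annotated start. The windows are chr12:57546062-57546361 (minus strand) for Foxa1, chr2:148046920-148047219 (minus) for the first of 3 entries of Foxa2, chr19:37434591-37434890 (plus) for Hhex, chr1:128592250-128592549 (minus) for Cxcr4 and chr6:92244601-92244900 (minus) for Trh. Capitals mark a forkhead core (TGTTTAC or its reverse complement GTAAACA) or a TATA box (TATAAA or TTTATA).
Foxa1: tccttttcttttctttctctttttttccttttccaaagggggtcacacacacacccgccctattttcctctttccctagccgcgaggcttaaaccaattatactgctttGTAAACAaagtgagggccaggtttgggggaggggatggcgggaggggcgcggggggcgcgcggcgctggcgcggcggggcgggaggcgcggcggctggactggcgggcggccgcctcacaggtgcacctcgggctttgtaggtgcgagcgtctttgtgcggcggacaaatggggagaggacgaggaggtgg
Foxa2: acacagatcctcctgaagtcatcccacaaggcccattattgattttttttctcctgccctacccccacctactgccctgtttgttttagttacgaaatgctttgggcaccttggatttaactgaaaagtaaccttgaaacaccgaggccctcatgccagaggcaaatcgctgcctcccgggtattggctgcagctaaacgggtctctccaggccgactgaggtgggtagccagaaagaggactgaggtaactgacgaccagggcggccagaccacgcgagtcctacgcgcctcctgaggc
Hhex: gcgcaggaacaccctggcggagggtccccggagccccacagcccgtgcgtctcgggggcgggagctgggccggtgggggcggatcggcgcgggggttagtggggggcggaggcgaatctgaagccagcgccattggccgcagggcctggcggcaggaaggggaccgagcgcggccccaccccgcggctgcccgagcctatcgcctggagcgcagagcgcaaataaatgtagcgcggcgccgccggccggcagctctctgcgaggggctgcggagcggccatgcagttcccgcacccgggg
Cxcr4: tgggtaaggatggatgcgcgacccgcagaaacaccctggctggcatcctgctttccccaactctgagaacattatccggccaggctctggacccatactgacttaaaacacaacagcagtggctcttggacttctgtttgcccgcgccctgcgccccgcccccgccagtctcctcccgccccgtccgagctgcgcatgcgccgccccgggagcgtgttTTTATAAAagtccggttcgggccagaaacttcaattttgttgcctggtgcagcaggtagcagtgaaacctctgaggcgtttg
Trh: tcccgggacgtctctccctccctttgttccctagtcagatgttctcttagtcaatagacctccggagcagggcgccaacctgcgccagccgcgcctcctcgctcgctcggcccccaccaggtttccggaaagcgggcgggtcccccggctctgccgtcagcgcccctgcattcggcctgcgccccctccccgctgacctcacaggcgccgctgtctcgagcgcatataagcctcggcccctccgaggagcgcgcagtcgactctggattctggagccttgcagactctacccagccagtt

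Of 4 motifs searched on both strands, none was common to the members. The forkhead core was found in 1 member, on the minus strand of Foxa1 at position -141 from the start, and in 3.65% of all 32851 promoters of this length. A TATA box, held by 13.6% of promoters, stood in Cxcr4 on both strands, at -32 and -30, the matches overlapping each other. The third Foxa2 entry, not printed, held a TATA box on the minus strand at -208 and a GATA motif (AGATAA, in 11.2% of promoters) at -183. A SOX core (ATTGTT, in 10.7%) was found in none of the 8 member windows. The windows were rich in CpG dinucleotides, the sites of DNA methylation: Hhex held 37 and Onecut1 38, more than 94.4% and 95% of promoters, against a median of 7 over all promoters. Cxcr4 held 20, Foxa1 26, Trh 28 and the printed Foxa2 window 12. A match or its lack describes only these letters in this window.

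The arrays held 45101 probe sets as log2 intensities, with array medians from 6.13 to 6.23. Nos3 itself averaged 6.65 ± 0.24 (SD, n = 10) on control arrays at day 0, against 6.98 ± 0.18 (SD, n = 6) on Nos3-/- arrays. At day 11 the averages were 7.05 ± 0.21 (SD, n = 9) and 6.88 ± 0.14 (SD, n = 6). Its probe set is not placed relative to the disrupted part of the gene in the sources used here, so this level does not check the genotype labels. The mean of 17 pluripotency genes ran from 9.80 to 11.11 on control and from 9.05 to 11.49 on Nos3-/- arrays at day 0. Replicate 3 of the Nos3-/- cells stood apart from its group on both days. Its mean correlation with the other arrays of its group over all genes was 0.971 at day 0, where the others had 0.975 to 0.985, and 0.961 at day 11, where the others had 0.984 to 0.987. It also had the lowest pluripotency mean of its group on both days, 9.05 and 8.47. Its day 0 array was more like the control day 0 arrays (mean correlation 0.984) than the other Nos3-/- arrays of day 0 (0.971) or of day 11 (0.967). Its day 11 array was more like the other Nos3-/- arrays of day 11 (0.961) than those of day 0 (0.952). Its mean of 23 fibroblast genes was 10.43 at day 0, in a group range of 9.46 to 10.43. At day 11 that mean was 8.56, in a range of 8.27 to 9.14. For every member but Onecut1 it was the highest Nos3-/- array at day 0 and the lowest at day 11. Any doubt about its day labels or cultures bears on the genotype comparisons of both days and on the Nos3-/- time and interaction values. A probe set of Smad2, picked after its values were seen, separated the genotypes without overlap, at 6.13 to 8.38 on control and 9.36 to 9.93 on Nos3-/- arrays, and replicate 3 read 9.74 and 9.39, within the Nos3-/- range. Whether its day labels or cultures were exchanged was not tested, and members' values are given with and without these arrays where they turn on them.

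**Figure D1:**
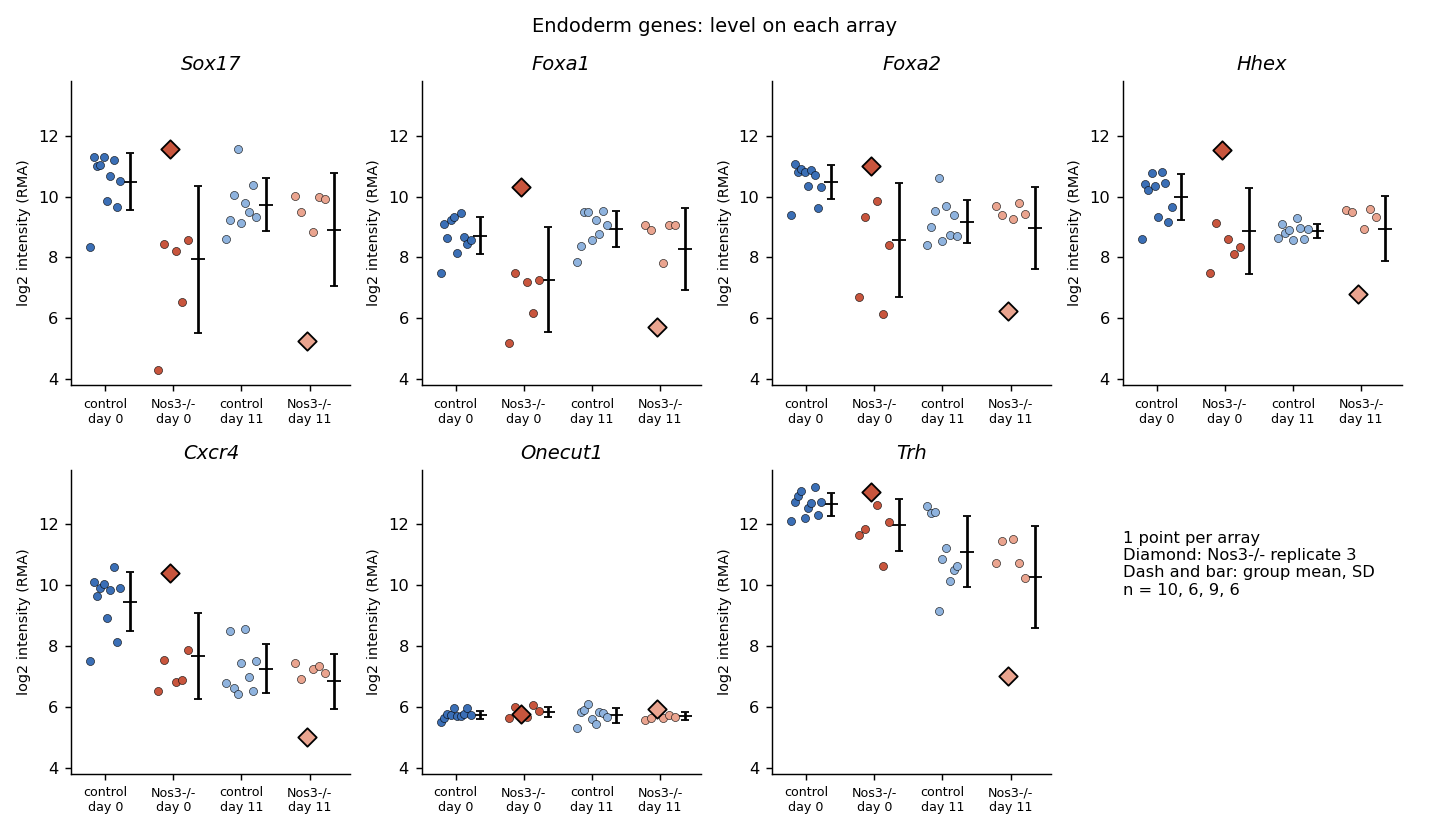
Log2 RMA intensity (y axis) of each of the 7 genes on every array, by genotype and day (x axis), with a dash and bar for the group mean and SD. Diamonds are Nos3-/- replicate 3, the highest Nos3-/- array at day 0 and the lowest at day 11 for every gene but Onecut1, whose levels lie between 5.32 and 6.08.

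At day 0, before differentiation, Nos3-/- cells had lower Sox17, Foxa2 and Cxcr4 transcript than control cells. Sox17 was 5.86-fold, Foxa2 3.77-fold and Cxcr4 3.46-fold lower. Foxa1, Hhex and Trh had lower means without passing the test, and Onecut1 differed by 0.08. The test was limma on the log2 values of all 31 arrays, with Benjamini-Hochberg adjustment over all genes and a call at an adjusted p under 0.05. By it, 3 of 7 members were lower and 0 higher, where 7.47% of all genes were lower and 16.6% changed in either direction. The median change of the members was -1.44, against 0.01 over all genes. In bulk RNA, fewer cells of a type and less RNA per cell cannot be told apart.

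Sox17 ranged from 8.35 to 11.30 (median 10.84) on the 10 control arrays and from 4.29 to 11.56 (median 8.34) on the 6 Nos3-/- arrays. Of the Nos3-/- arrays, 5 lay below the control median and 3 below the lowest control array, while replicate 3 lay above the highest, so the groups overlapped. The means were 10.49 ± 0.94 (SD, n = 10) and 7.94 ± 2.41 (SD, n = 6), a log2 change of -2.55 (SE 0.74, 95% interval -4.05 to -1.05, limma adjusted p = 0.0174). The fit takes the same spread in all 4 groups for a gene, whereas Sox17 spread more in Nos3-/- than in control cells at day 0. So did Foxa2 (SD 1.88 against 0.57) and Cxcr4 (1.43 against 0.97). Day 0 intervals and p-values of these genes may therefore understate the error. The Sox17 call was lost without Nos3-/- replicate 1, the lowest array (-1.82, adjusted p = 0.0615), or replicate 5 (-2.27, adjusted p = 0.0686). Without replicate 3 the change was -3.28 (adjusted p = 0.000899). The other Sox17 probe set gave -1.95 (SE 0.53, adjusted p = 0.0137 over all probe sets) and followed the set used with r = 0.98 over 31 arrays. The set used carries the suffix _x_at, by which the manufacturer marks probes that may bind other transcripts.

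Of the forkhead factors, Foxa2 passed and Foxa1 just missed the threshold. Foxa2 ranged from 9.38 to 11.06 (median 10.76) in control and from 6.13 to 11.00 (median 8.86) in Nos3-/- cells. Below the lowest control array lay 4 of 6 Nos3-/- arrays, with only replicates 3 and 4 inside the control range. The change was -1.91 (SE 0.55, 95% interval -3.04 to -0.79, limma adjusted p = 0.0172), and it did not pass without Nos3-/- replicate 1 (adjusted p = 0.0531) or 5 (adjusted p = 0.0917). Without replicate 3 it was -2.40 (adjusted p = 0.00152). Foxa1 ranged from 7.48 to 9.47 (median 8.65) in control and from 5.18 to 10.30 (median 7.23) in Nos3-/- cells. Again 4 of 6 Nos3-/- arrays lay below every control array and replicate 3 above every one. The difference of -1.44 (SE 0.52, 95% interval -2.50 to -0.38) missed the threshold with a limma adjusted p of 0.0552, and passed without Nos3-/- replicate 3 (-2.04, adjusted p = 0.00142) or control replicate 1 (-1.57, adjusted p = 0.0351), and without Nos3-/- day 11 replicate 3, which enters only the shared estimate of spread (adjusted p = 0.0252).

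Hhex, the anterior endoderm homeobox factor, ranged from 8.59 to 10.82 (median 10.28) in control and from 7.48 to 11.54 (median 8.48) in Nos3-/- cells. Replicate 3 was the highest of all 16 day 0 arrays, and 3 Nos3-/- arrays lay below the lowest control array. The difference was -1.11 (SE 0.44, 95% interval -2.00 to -0.21, limma adjusted p = 0.0802), and like that of Foxa1 it passed without Nos3-/- replicate 3 (-1.64, adjusted p = 0.00172), control replicate 1 (-1.26, adjusted p = 0.0401) or Nos3-/- day 11 replicate 3 (adjusted p = 0.0406). Onecut1, the later liver and pancreas factor, stayed between 5.50 and 5.95 in control and between 5.63 and 6.05 in Nos3-/- cells, a difference of 0.08 (95% interval -0.10 to 0.27, limma adjusted p = 0.588). Its SD over all 31 arrays was 0.17, a spread larger than that of 25.6% of genes, whereas the SDs of the 6 other members exceeded those of 96.3% to 99.4% of genes.

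Cxcr4, the chemokine receptor, ranged from 7.52 to 10.59 (median 9.88) in control and from 6.53 to 10.40 (median 7.21) in Nos3-/- cells. All Nos3-/- arrays but replicate 3 lay at or below 7.87, under 9 of 10 control arrays, and 3 of them lay under all control arrays. The change was -1.79 (SE 0.50, 95% interval -2.81 to -0.77, limma adjusted p = 0.0149), the lowest adjusted p of the 7 genes at day 0, and it did not pass without Nos3-/- replicate 5 (-1.63, adjusted p = 0.0562). Without replicate 3 it was -2.34 (adjusted p = 0.000377). Trh ranged from 12.12 to 13.24 (median 12.72) in control and from 10.64 to 13.08 (median 11.96) in Nos3-/- cells. Although 4 of 6 Nos3-/- arrays lay below every control array, the difference of -0.67 (SE 0.52, 95% interval -1.73 to 0.39) had a limma adjusted p of 0.404, and without replicate 3 it was -0.89 (adjusted p = 0.26).

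**Figure D2:**
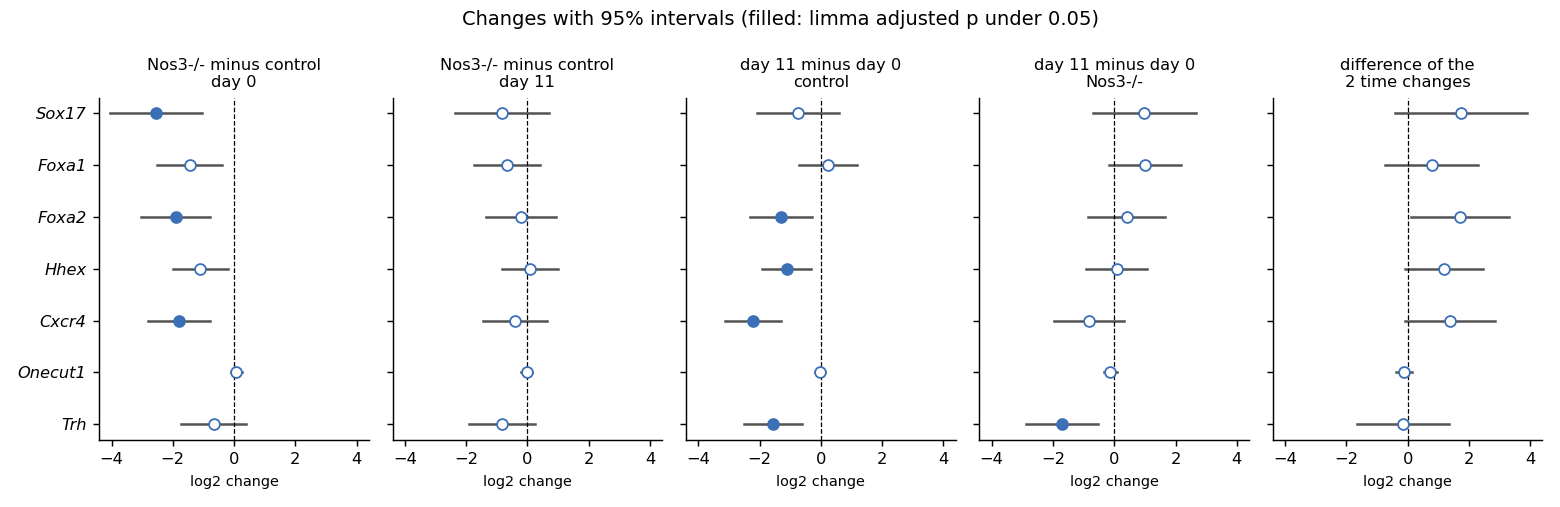
Log2 change (x axis) of each gene (y axis) in the 5 comparisons, with 95% intervals from limma. Filled points have an adjusted p under 0.05: these are 3 genes in iPSCs, 0 in embryoid bodies, 4 in the control time course, 1 in the Nos3-/- time course and 0 in the interaction.

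Among 21 measured genes of the early endoderm and its organizer (members excluded), called companions here, 12 were lower in Nos3-/- cells, 1 was higher (Fgf17, a growth factor, by 0.45) and 8 did not pass, with a median change of -1.11. The share of all genes lower was 7.47%. Without both Nos3-/- replicate 3 arrays 16 companions were lower and 1 was higher, where 12.1% of all genes were lower. The lowest were Lhx1, an organizer homeobox gene (-3.08, SE 0.79, limma adjusted p = 0.00831), Cyp26a1, which breaks down retinoic acid (-2.55, SE 0.66, adjusted p = 0.00881), and Gsc, the organizer gene goosecoid (-2.25, SE 0.57, adjusted p = 0.00765). The epithelial genes Krt18 (-0.86, adjusted p = 0.132) and Epcam (0.14, adjusted p = 0.292) did not pass. Of 16 genes of Nodal signalling, the pathway upstream of this germ layer, 1 was higher and 5 were lower. Gdf3, a Nodal-related ligand, was higher by 1.29 (SE 0.34, adjusted p = 0.0113), and Cfc1, a Nodal coreceptor, was lower (-1.19, SE 0.34, adjusted p = 0.0184). The 5 lower genes also hold Foxh1, Furin, Smad4 and Smad2, the last a transducer of the Nodal signal whose direction is not settled. Its probe set used here gave -1.21 (SE 0.08, adjusted p = 8.27e-12), and its other probe set 2.34 (SE 0.18, adjusted p = 8.19e-11 over all probe sets).

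Markers of other cell types that share these factors were counted too, where 9.17% of all genes were higher and 7.47% lower. Of 12 parietal endoderm genes, an extraembryonic type that also makes Sox17, 2 were lower, Col4a1, a basement membrane collagen (-1.35, SE 0.39, limma adjusted p = 0.0187), and Snai1 (-0.36, SE 0.11, adjusted p = 0.0267), and 0 were higher. Their list mean ran from 8.59 to 9.85 in control and from 8.15 to 8.88 in Nos3-/- cells, and its part in the lower Sox17 was not tested. Of 19 visceral and yolk-sac endoderm genes, 2 were higher (Apoa2, an apolipoprotein, by 2.90 and Rhox5, a homeobox gene, by 2.60) and 0 were lower. Among 9 node, notochord and floor plate genes 1 was lower, Sox9 (-0.82, SE 0.22, limma adjusted p = 0.00969). Of 16 endothelial genes 3 were higher and 1 was lower, and the list mean lay between 6.12 and 6.47 on every day 0 array.

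Markers of pluripotent cells and of fibroblasts also differed at day 0. Of 17 pluripotency genes, 3 were higher in Nos3-/- cells (Fbxo15 by 2.56, Nanog by 1.44 and Sox2 by 1.03), 0 were lower and 14 did not pass. The share of all genes higher was 9.17% and that lower 7.47%. Their mean was 11.03 to 11.49 on the Nos3-/- arrays other than replicate 3. Of 23 fibroblast genes, which feeder cells express, 8 were lower and 0 higher, and their mean ran from 9.77 to 11.04 in control and from 9.46 to 10.43 in Nos3-/- cells. Without both replicate 3 arrays 11 pluripotency genes were higher and 11 fibroblast genes lower, where 13.5% of all genes were higher and 12.1% lower. The part of either in the lower endoderm transcripts was not tested. Within the control group, replicates 1 and 9 had the highest pluripotency means, 11.11 and 10.99 against at most 10.40 on the 8 others. The same replicates had the lowest Sox17 (8.35 and 9.67), Foxa2 (9.38 and 9.62), Hhex (8.59 and 9.17) and Cxcr4 (7.52 and 8.13) of the control arrays. For Foxa1 and Trh only replicate 1 was lowest: replicate 9 (8.44 and 12.31) lay above replicate 6 for Foxa1 (8.15) and replicate 5 for Trh (12.20). Onecut1 was 5.50 and 5.95 on replicates 1 and 9, the lowest and the joint highest. As replicates 1 and 9 form a separate cluster, no correlation over the group is given. Among the 8 others, a split chosen after seeing the data, the sign was the opposite: Sox17, Foxa1, Foxa2, Hhex and Cxcr4 had r of 0.45 to 0.66 with the pluripotency mean. None of the 7 genes passed there by an exact permutation test adjusted over 7 relations (Cxcr4 r = 0.66, p = 0.0603, adjusted p = 0.257; rho = 0.71, p = 0.0576, adjusted p = 0.232).

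**Figure D3:**
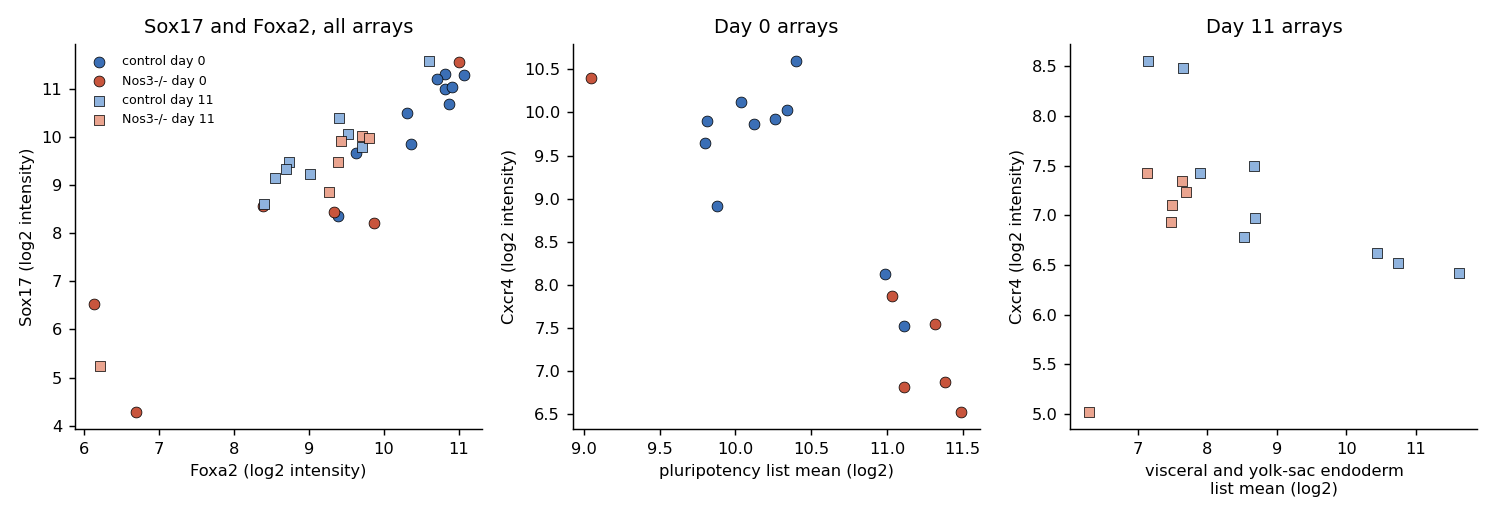
Each point is an array. The panels plot Sox17 against Foxa2 (log2 intensities) on all arrays, Cxcr4 against the mean of 17 pluripotency genes at day 0, and Cxcr4 against the mean of 19 visceral and yolk-sac endoderm genes at day 11, coloured by genotype and day. At day 0, control replicates 1 and 9 (pluripotency means 11.11 and 10.99) lie beside 5 of the Nos3-/- arrays, while Nos3-/- replicate 3 (9.05) lies at the other end.

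At day 11 none of the 7 genes passed in the comparison of Nos3-/- with control embryoid bodies, where 9.70% of all genes did (4.41% higher and 5.29% lower). The largest differences were those of Sox17 and Trh, both -0.82, and the members' median was -0.41 against 0 over all genes. No member had an unadjusted p under 0.05, and none passed under array weights or any other alternative run. The intervals were wide. That of Sox17 ran from -2.35 to 0.71 (limma adjusted p = 0.602), of Foxa1 from -1.74 to 0.42 (0.537), of Foxa2 from -1.36 to 0.93 (0.891), of Hhex from -0.83 to 0.99 (0.952), of Cxcr4 from -1.45 to 0.64 (0.731) and of Trh from -1.90 to 0.26 (0.405). Onecut1 differed by -0.03 (95% interval -0.22 to 0.16, adjusted p = 0.911).

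The spread in Nos3-/- embryoid bodies came largely from replicate 3. It had 5.24 for Sox17, 5.70 for Foxa1, 6.22 for Foxa2, 6.80 for Hhex, 5.02 for Cxcr4 and 7.02 for Trh. The other 5 arrays lay between 8.85 and 10.02 for Sox17, 7.80 and 9.08 for Foxa1, 9.26 and 9.80 for Foxa2, 8.93 and 9.59 for Hhex, 6.93 and 7.43 for Cxcr4 and 10.25 and 11.52 for Trh. Those 5 arrays lay inside the range of the control embryoid bodies for Sox17, Foxa2, Cxcr4 and Trh. For Foxa1 1 of them lay below the lowest control array (7.80 against 7.85), and for Hhex 4 lay above the highest (9.30). Without replicate 3, the difference became -0.09 for Sox17, -0.14 for Foxa1, 0.34 for Foxa2, 0.51 for Hhex, -0.04 for Cxcr4 and -0.16 for Trh, and none passed.

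Some other endoderm genes differed at day 11, and so did markers of other cells. Of the 21 companions 3 were lower in Nos3-/- embryoid bodies, namely Gata6 (-2.01, SE 0.48, limma adjusted p = 0.00542) and Gata4 (-0.95, SE 0.28, adjusted p = 0.0263), zinc-finger factors of endoderm and heart, and Foxa3 (-1.20, SE 0.34, adjusted p = 0.0184), the third forkhead factor of the Foxa group, while 1 was higher, the epithelial gene Epcam (0.47, SE 0.09, adjusted p = 0.000492), and 17 did not pass. Of 19 visceral and yolk-sac endoderm genes 11 were lower, led by Cubn, an uptake receptor (-4.15), Afp, alpha-fetoprotein (-3.84), and Rbp4, the retinol carrier (-3.43). Of 17 gut and liver genes 2 were lower, Cdx2, a hindgut homeobox factor (-1.50, SE 0.30, adjusted p = 0.000997), and Gata5 (-0.70, SE 0.22, adjusted p = 0.0426). Without both replicate 3 arrays the count of lower companions was 1 and that of lower visceral and yolk-sac genes 10. The share of all genes lower was then 6.96%. Of 12 parietal endoderm genes 3 were lower, led by the laminin Lama1 (-2.53), and 1 was without those arrays. Of 23 fibroblast genes 11 were lower, led by Postn (-3.76), Lum (-3.23) and Col1a1 (-2.91), genes of the extracellular matrix, and 1 was higher. Of 17 pluripotency genes 5 were higher, led by Fbxo15 (2.54), Nanog (1.25) and Sox2 (1.20), and 0 were lower. Of 16 Nodal pathway genes 4 were higher, including Lefty1 (2.25) and the coreceptor Tdgf1 (1.52), and 2 were lower, among them Smad2 with the probe sets again opposed (-1.32 and 3.16). The part of these in the members' day 11 levels was not tested.

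Over differentiation of control cells, 4 of the 7 genes fell: Cxcr4, Trh, Foxa2 and Hhex. By the same limma test, 18.2% of all genes fell, 16% rose and 34.2% changed in either direction. Sox17, Foxa1 and Onecut1 did not pass. The members' median change was -1.11, against -0.03 over all genes.

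Cxcr4 had its day 11 control values between 6.42 and 8.55 (median 6.97), and 7 of 9 arrays lay below the lowest day 0 array. It fell by 2.21 (SE 0.45, 95% interval -3.12 to -1.30, limma adjusted p = 0.000263), a 4.63-fold lower level, and passed in all 31 omissions of 1 array. Trh lay between 9.14 and 12.60 (median 10.87), with 6 of 9 arrays below every day 0 array and replicates 1, 2 and 3 (12.60, 12.39 and 12.41) inside the day 0 range. It fell by 1.56 (SE 0.46, 95% interval -2.50 to -0.62, adjusted p = 0.00897), also in all 31 omissions.

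Foxa2 lay between 8.40 and 10.60 (median 9.01) in control embryoid bodies, and every array was below the day 0 median. Its change of -1.30 (SE 0.49, 95% interval -2.30 to -0.30, limma adjusted p = 0.0384) was close to the threshold and failed it in 11 of 31 omissions, among them those of control day 0 replicates 2, 3, 4, 5, 7 and 8 (highest adjusted p over all omissions 0.0675, without control day 11 replicate 1). The SEs and calls of both Foxa2 and Hhex use a spread estimated over all 4 groups, Nos3-/- arrays included. Foxa2 SDs at day 0 and day 11 were 0.57 and 0.70 in control, against 1.88 and 1.36 in Nos3-/- cells. Those of Hhex were 0.75 and 0.24, against 1.42 and 1.08. Hhex lay in a narrow band from 8.56 to 9.30 (median 8.89, SD 0.24), under the day 0 median on all 9 arrays. It fell by 1.11 (SE 0.39, 95% interval -1.91 to -0.31, adjusted p = 0.0273), and missed the threshold without control day 0 replicate 4 or 7 (adjusted p = 0.0505 each).

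Sox17 lay between 8.61 and 11.57 (median 9.49) at day 11 in control, 8 of 9 arrays below the day 0 median. Its difference of -0.75 (SE 0.65, 95% interval -2.09 to 0.58) had a limma adjusted p of 0.399. Foxa1 lay between 7.85 and 9.54 (median 9.06), with 3 arrays above the highest day 0 array, and differed by 0.23 (SE 0.46, 95% interval -0.72 to 1.17, adjusted p = 0.744). Whether Foxa1 and Foxa2 differ in their change with time was not tested. Onecut1 lay between 5.32 and 6.08 and differed by -0.02 (95% interval -0.18 to 0.15, adjusted p = 0.886).

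Of the 21 companions 12 fell in control cells, 2 rose (Gata4 by 1.45 and Sox7, a factor of extraembryonic endoderm and vessels, by 1.33) and 7 did not pass. The largest falls were those of Cer1, a secreted antagonist made by anterior endoderm (-4.46, SE 0.58, limma adjusted p = 5.58e-07), Gsc (-3.87, SE 0.51, adjusted p = 6.65e-07) and Lhx1 (-3.15, SE 0.70, adjusted p = 0.000781). In contrast, 17 of 19 visceral and yolk-sac endoderm genes rose and 0 fell, among them Afp (5.09, SE 0.62), Apob (4.43, SE 0.59) and Ttr (4.11, SE 0.48). Of 17 gut and liver genes 8 rose and 2 fell, with Cdx2 (2.81), Gata5 (1.69) and Shh (1.37) the most raised. Of the Nodal pathway genes 7 rose and 5 fell, including the Nodal antagonists Lefty1 (-3.93, SE 0.29) and Lefty2 (-3.64, SE 0.41). Of 23 fibroblast genes 12 fell and 4 rose, their mean running from 9.77 to 11.04 at day 0, when feeders were present, and from 8.81 to 10.21 at day 11. Of 17 pluripotency genes 4 fell and 1 rose, where 18.2% of all genes fell and 16% rose. The part of either in the falls of Cxcr4, Trh, Foxa2 and Hhex was not tested.

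Control embryoid bodies varied among themselves in markers of visceral and parietal endoderm. Replicates 3, 4 and 8 had means of the 19 visceral and yolk-sac genes of 10.44, 11.62 and 10.74, and the 6 others 7.15 to 8.69. Their means of the 12 parietal endoderm genes were also the highest, 9.83, 11.21 and 10.28 against at most 9.59. The same replicates had the highest Sox17 of the group, 10.06, 11.57 and 10.39 against at most 9.79, and its lowest Cxcr4, 6.62, 6.42 and 6.52 against at least 6.78. Over all 9 arrays, both sets of replicates together, Cxcr4 ran against the visceral and yolk-sac list mean by rank (rho = -0.92, exact permutation adjusted p = 0.0184 over 14 relations). By r it did not pass that test (-0.85, adjusted p = 0.056), and no other member passed by either. The arrays form separate clusters on this list, so these p-values may mostly measure the split between the clusters. The 14 relations include 7 with the pluripotency mean in control at day 0, and r and rho were adjusted separately. Within the 6 others, no member passed after adjustment over 7 relations. Cxcr4 had r = -0.87 there (p = 0.0319, adjusted p = 0.146) and rho = -0.71 (p = 0.136, adjusted p = 0.734). Those 6 arrays were set apart by the list mean itself, so this does not exclude a relation. The part of visceral or parietal endoderm in the day 11 levels was not tested.

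In Nos3-/- cells 1 of the 7 genes changed between day 0 and day 11, with 18.1% of all genes lower, 13% higher and 31.1% changed in either direction. Of the 5658 genes called 2359 were higher, against 1982 of 6423 with each array centred on its median. Trh ranged from 7.02 to 11.52 (median 10.73) at day 11, every array below the day 0 median of 11.96. It fell by 1.71 (SE 0.58, 95% interval -2.89 to -0.53, limma adjusted p = 0.0248). The call was lost without replicate 3 of day 11 (-1.05, adjusted p = 0.0805), replicate 3 of day 0 (adjusted p = 0.0567) or replicate 4 of day 0 (adjusted p = 0.0501), and without both replicate 3 arrays the change was -0.84 (adjusted p = 0.173).

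Of the 5 transcription factors, 4 had higher medians in Nos3-/- embryoid bodies than in Nos3-/- iPSCs, Onecut1 being the exception. Sox17 had a median of 9.70 against 8.34, Foxa1 8.99 against 7.23, Foxa2 9.41 against 8.86 and Hhex 9.41 against 8.48. None of these differences passed, with Sox17 at 0.98 (SE 0.82, 95% interval -0.70 to 2.66, limma adjusted p = 0.386), Foxa1 at 1.01 (SE 0.58, interval -0.18 to 2.19, adjusted p = 0.192), Foxa2 at 0.40 (SE 0.62, interval -0.86 to 1.65, adjusted p = 0.66) and Hhex at 0.08 (SE 0.49, interval -0.92 to 1.08, adjusted p = 0.921). Foxa1 passed without Nos3-/- replicate 3 of day 0 (1.61, adjusted p = 0.0128) or of day 11 (1.52, adjusted p = 0.0277). Cxcr4 differed by -0.83 (SE 0.56, interval -1.98 to 0.32, adjusted p = 0.27) and Onecut1 by -0.13 (interval -0.34 to 0.08, adjusted p = 0.35). Among the companions 1 rose, Gata4 (1.31, SE 0.31, adjusted p = 0.00201), and 1 fell, Fgf17 (-0.70, SE 0.16, adjusted p = 0.00114). Without both replicate 3 arrays 8 rose and 1 fell, where 15.5% of all genes rose and 20.1% fell.

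Whether the genotypes differ in how the genes change with time is the interaction of genotype and day. None of the 7 members passed it, and 1.24% of all genes did. Only Foxa2 had an unadjusted p under 0.05 (0.0386). With array weights 4 members passed, Sox17, Foxa2, Hhex and Cxcr4, where 1590 of 18194 genes did. The estimates were positive for 5 members, 1.73 for Sox17 (95% interval -0.42 to 3.88, limma adjusted p = 0.411), 0.78 for Foxa1 (-0.74 to 2.29, 0.639), 1.70 for Foxa2 (0.10 to 3.31, 0.264), 1.19 for Hhex (-0.09 to 2.47, 0.336) and 1.38 for Cxcr4 (-0.08 to 2.84, 0.328). Trh, which fell in both genotypes, had -0.15 (-1.66 to 1.36, 0.949), and Onecut1 -0.11 (-0.38 to 0.15, 0.716). A positive value means that the change in Nos3-/- cells lay above that in control cells. The falls called in control and not in Nos3-/- cells are therefore not shown to differ between the genotypes in the unweighted fit of all arrays, whereas in the weighted fit the interaction of Foxa2, Hhex and Cxcr4 passed.

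Leaving out both Nos3-/- replicate 3 arrays, an alternative added after seeing the data, changed this. The interaction then passed for Sox17 (3.19, limma adjusted p = 0.0153), Foxa1 (1.90, adjusted p = 0.0196), Foxa2 (2.74, adjusted p = 0.00966), Hhex (2.15, adjusted p = 0.00224) and Cxcr4 (2.29, adjusted p = 0.0162), 5 of 7 members higher where 3.44% of all genes were. At day 0 the same 5 genes were lower, 12.1% of all genes being so, with Foxa1 at -2.04 (adjusted p = 8.43e-05) and Hhex at -1.64 (adjusted p = 9.5e-05). Over time in Nos3-/- cells Sox17 rose by 2.44 (adjusted p = 0.00388), Foxa1 by 2.13 (adjusted p = 0.000188), Foxa2 by 1.43 (adjusted p = 0.0271) and Hhex by 1.04 (adjusted p = 0.0134), where 15.5% of all genes rose. The omitted arrays are extreme in these very genes, so their omission and this outcome are not independent. Leaving out replicate 3 of day 0 alone let 1 interaction pass, that of Hhex (1.72, adjusted p = 0.0499).

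**Figure D4:**
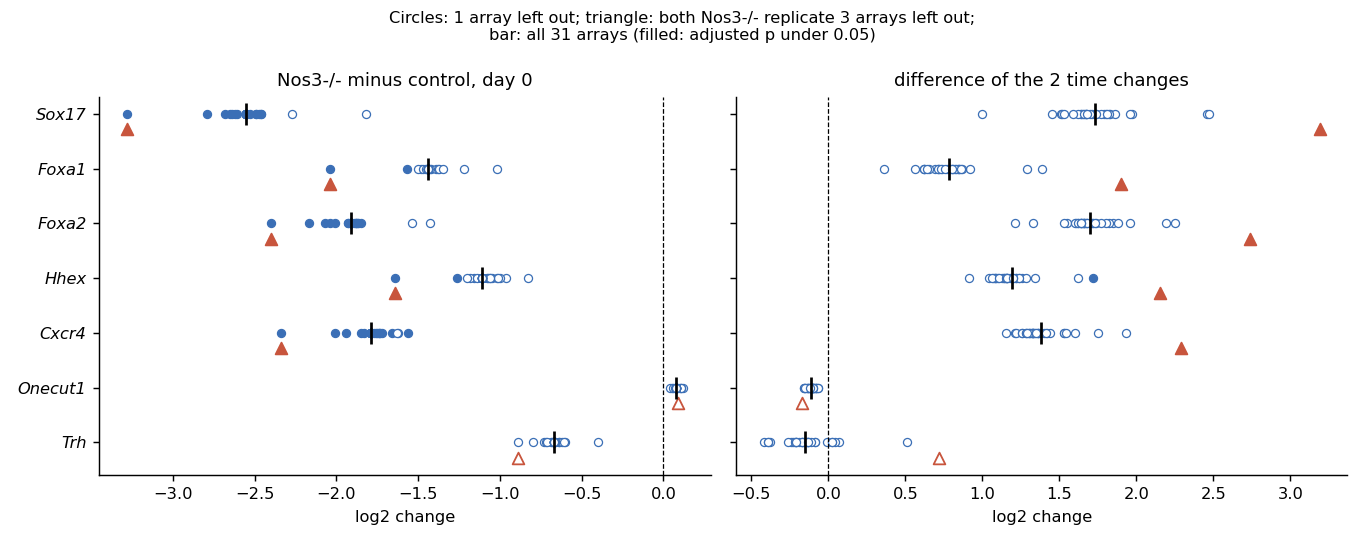
Log2 change (x axis) of each gene (y axis) at day 0 and for the difference between the time changes, with all 31 arrays (bar), with 1 array left out (circles) and with both Nos3-/- replicate 3 arrays left out (triangles). Filled symbols have a limma adjusted p under 0.05. In the difference panel the triangles of Sox17, Foxa1, Foxa2, Hhex and Cxcr4 are filled at 1.90 to 3.19, whereas among the circles only 1, of Hhex at 1.72, is.

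The order of group means summarizes these levels. Sox17 ran from control day 0 (10.49) through control day 11 (9.74) and Nos3-/- day 11 (8.92) to Nos3-/- day 0 (7.94), and no neighbouring pair in this order passed its test. Foxa2 had the same order (10.48, 9.18, 8.97 and 8.57), with only the step from control day 0 to control day 11 passing. Cxcr4 and Trh shared another, control day 0 (9.46 and 12.66), Nos3-/- day 0 (7.67 and 11.99), control day 11 (7.25 and 11.10) and Nos3-/- day 11 (6.84 and 10.28). Of the steps tested there, that from control to Nos3-/- at day 0 passed for Cxcr4 alone, and that between genotypes at day 11 passed for neither. Hhex averaged 9.98 in control at day 0 and 8.87 to 8.95 in the other 3 groups, and Foxa1 8.27 to 8.93 in all groups but Nos3-/- day 0, where it averaged 7.27.

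Sox17, Foxa1, Foxa2, Hhex and Cxcr4 varied together from array to array. As a description over the 31 arrays, which share their group's preparation, the deviations from the group mean of these 5 genes correlated pairwise with r from 0.63 to 0.95 (median 0.865), and from 0.41 to 0.91 without both Nos3-/- replicate 3 arrays. Within control day 0 the range was 0.77 to 0.95, whereas within control day 11 it was -0.42 to 0.93. The negative values there came from pairs with Cxcr4, since among the 4 transcription factors it was 0.09 to 0.93. Trh followed the 5 genes with r of 0.41 to 0.55, and of 0.06 to 0.39 without those arrays. Onecut1 had r of -0.16 to 0.14 with them, and of -0.06 to 0.39 without those arrays, and its other probe set, at 3.47 to 4.16, correlated with the one used by only 0.28.

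**Figure D5:**
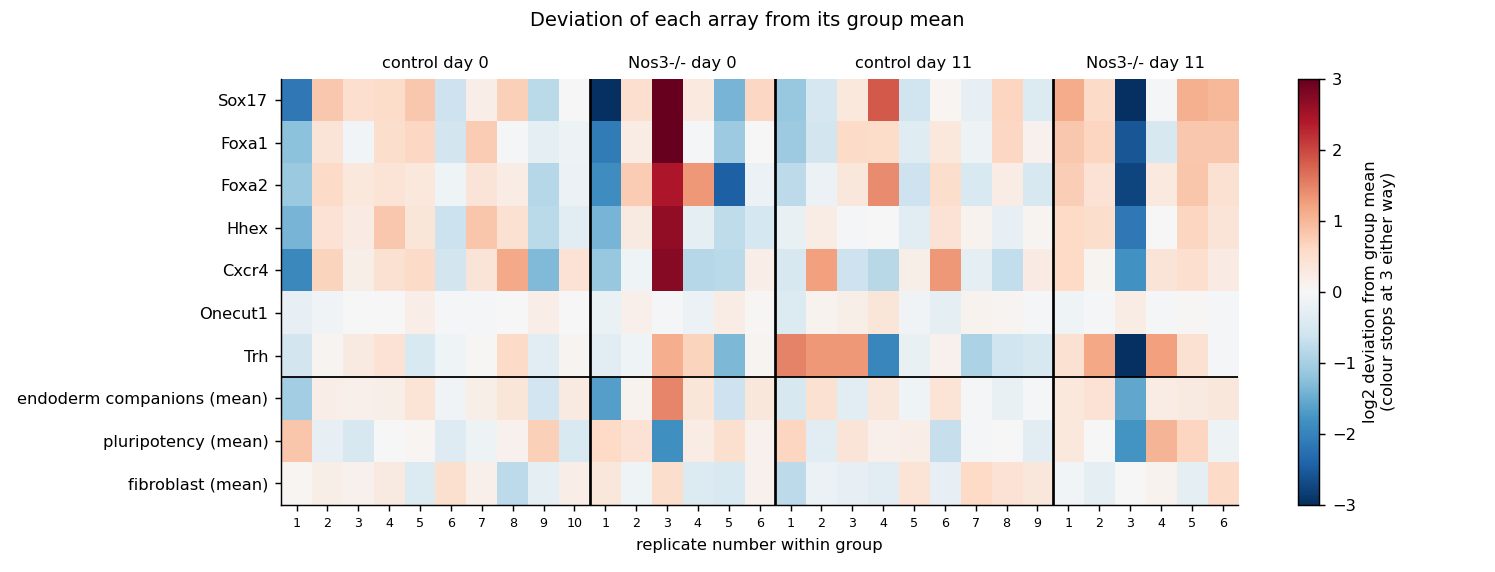
Log2 deviation of each array (columns, by group and replicate number) from its group mean, for the 7 genes and for the means of 3 marker lists (rows). Red is above and blue below the group mean, and the colour stops at 3. Nos3-/- replicate 3 is red at day 0 and blue at day 11 for 6 of the genes and for the endoderm companions, and blue on both days for the pluripotency mean.

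Likeness was searched over 16331 other named genes, and the 5 most like Sox17, Foxa1, Foxa2 and Hhex each included another member, which those of Cxcr4, Trh and Onecut1 did not. The closest to Sox17 were Dgkk, a diacylglycerol kinase (r = 0.95, and 0.91 without both replicate 3 arrays), Foxa1 (0.95), Gata6 (0.93), Spink1 (0.93) and Amot (0.93). Foxa1 had Sox17 as its closest, followed by Fam210b, Spink1, Amot and Clic6 (0.92 to 0.93). Foxa2 was closest to Pkdcc (0.92), Sox17 (0.91), Dgkk, Amot and Emb, and Hhex to Amot (0.93), Dapk2, Fzd5, Dgkk and Foxa1. Dgkk stood among the 5 closest to Sox17, Foxa2 and Hhex, and Amot, an angiomotin of the Hippo pathway, among those of all 4 transcription factors named. Cxcr4 had other neighbours, Kcns3 (0.93), Lhx1os, Fzd8, Ube2ql1 and Pcdh8, and among the members was closest to Hhex (0.86, the 11th most like gene). Trh was most like Otx2, a homeobox gene of anterior epiblast and head (0.83), then Sec14l4, Nr6a1, Rnf10 and Pacsin3. For Onecut1 no gene exceeded 0.67, the closest being Cyp4f14, Cib1, Rab17, Ccdc17 and Fpr-rs3.

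The partners of the receptor and of the hormone precursor were also read. Cxcl12, the ligand of Cxcr4, passed in none of the 5 comparisons, with -0.27 at day 0 (limma adjusted p = 0.677) and 0.11 over time in control (adjusted p = 0.825), where Cxcr4 fell. Ackr3, the decoy receptor that takes up Cxcl12, was lower in Nos3-/- embryoid bodies at day 11 (-1.09, SE 0.21, adjusted p = 0.000534) and passed in no other comparison. Of 5 measured genes linked to Trh (Trhr, Trhde, Tshb, Pcsk1 and Pam), 0 differed between genotypes on either day. Of all genes 16.6% did at day 0 and 9.70% at day 11. Over time 18.2% of all genes fell in control and 18.1% in Nos3-/- cells. Of the 5 genes linked to Trh, 2 fell in each genotype. These were Pam, which amidates peptides (-0.77 in control, adjusted p = 0.000185, and -0.73 in Nos3-/-, adjusted p = 0.00426), and Pcsk1, a prohormone convertase (-0.69, adjusted p = 3.98e-06, and -0.49, adjusted p = 0.0048). Trhr, the receptor of the hormone, did not pass (-0.06 and -0.09).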

How the data were processed

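Affymetrix arrays of 10 control and 6 Nos3-/- iPSC samples and of 9 control and 6 Nos3-/- embryoid body samples were read from the deposited value table. Its values are log2 intensities that the authors made by RMA (background correction, quantile normalization and probe summary), per the submitters' processing notes, and RMA compresses differences between dim probe sets. Of 45101 probe sets, 34958 carried 1 gene symbol in the platform annotation, 932 several and 9211 none. 34754 matched RefSeq (GRCm38.p6). The probe set with the highest mean represented each of 18194 genes. The number of arrays limits the precision.

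A mean per group was fitted over all 31 arrays with limma 3.58.1 in R 4.3.3 (27 residual and 2.80 prior degrees of freedom), with 5 contrasts and Benjamini-Hochberg adjustment over all genes. The procedure was run on simulated data with the same spread in all 4 groups for a gene. That run does not bear on genes of unequal spread or on outlying arrays. No 2 arrays were identical, and the labels give no batch. Likeness was Pearson's r of deviations from the group mean, with predicted genes, clones and expressed-sequence symbols left out.

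The members, 13 marker lists (182 of 194 entries measured) and tests were chosen with earlier results of these data known. The text names the 7 members, up to 3 passing genes of largest change and up to 2 non-passing genes of highest level from a list per comparison, and the 5 genes most like each member. Other genes named behind a count of 5 or fewer, and the other Smad2 probe set, were added after their values were seen. Alternatives covered normalization, probe set choice, a filter on low levels, the variance model, array weights, the arrays fitted, the replicate number as a block and single omitted arrays.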

Additional observations from a re-analysis of the deposited data

Results flagged for a closer look

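Of 28 gene and group combinations of the 7 genes, 6 had an array far from the rest by Dixon's test, where chance gives about 1 in 20. All 6 are Nos3-/- replicate 3. At day 11 it was the lowest of 6 arrays, with Sox17 at 5.24 (next lowest 8.85), Foxa2 at 6.22 (9.26), Hhex at 6.80 (8.93), Cxcr4 at 5.02 (6.93) and Trh at 7.02 (10.25). At day 0 it was the highest for Cxcr4, at 10.40 (next highest 7.87). The genes are not independent of each other, so these are not 6 separate observations.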

How the results depend on the processing

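No change of a member that passed reversed its sign under any alternative. Of the member changes, 311 of those under other alternatives kept their side of the threshold, 7 lost and 20 gained a call, and with 1 array omitted 1055 kept, 21 lost and 9 gained it. The cause was not tested. With array weights, 5 members passed at day 0, 3 over time in Nos3-/- cells and 4 for the interaction, and 3939 genes passed at day 11 and 1590 for the interaction. With only the arrays of the groups compared, 0 members and 3679 genes passed over time in Nos3-/- cells, where fewer arrays estimate the spread. With the replicate number as a block, 1 member passed at day 0, 2 over time in control and 0 over time in Nos3-/- cells (adjusted p of Sox17 0.0524 and of Cxcr4 0.0534 at day 0). Counts of all genes under the block, and with array weights at day 0 and over time in Nos3-/- cells, are not given here. Whether those member counts follow a shift over all genes was not tested. The labels do not say whether same-numbered arrays are paired, and correlations of their deviations cannot settle it. These ran from -0.27 to 0.35 at day 0 and from -0.24 to 0.27 over time in control, with 3 of 6 and 3 of 9 over 0.1. Over time in Nos3-/- cells they ran from -0.02 to 0.29, with 2 of 6 over 0.1. Leaving out both Nos3-/- replicate 3 arrays, chosen after seeing the data, gave 5 members and 4671 genes at day 0. It also gave 4 members and 6493 genes over time in Nos3-/- cells, and 5 members and 1315 genes for the interaction. Omitting 1 array gave 0 to 5 members and 1471 to 4142 genes at day 0. Over time in control it gave 2 to 4 members and 5645 to 6641 genes. Over time in Nos3-/- cells it gave 0 to 1 members and 4391 to 6092 genes. For the interaction it gave 0 to 1 members and 88 to 745 genes. At day 0 the lowest counts came without Nos3-/- replicate 5 and the highest without replicate 3. Foxa1 also passed at day 0 with low-level genes left out (adjusted p = 0.0433). Onecut1 was dim throughout, and RMA files give no detection call here.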
